A study of Homo sapiens with 12 samples.

Results

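The genes described here are 10 members of the transcription program that KMT2A fusion proteins maintain in acute leukaemia, taken as listed symbols and mapped to the Ensembl identifiers of the deposited FPKM table: HOXA3, HOXA5, HOXA6, HOXA7, HOXA9, HOXA10, MEIS1, PBX3, MEF2C and MYB. They are 10 of the 20036 genes in the table. A level of at least 1 FPKM in at least 3 of 12 libraries was needed to be tested, and 6 of the 10 members reached it, among 9959 genes in all. HOXA3, HOXA5, HOXA6 and HOXA7 did not.

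The study asked how inhibition of UGCG, the glucosylceramide synthase, acts together with venetoclax in acute myeloid leukaemia. RNA was sequenced from MV-4-11, an established line of human myelomonocytic leukaemia labelled wild type, in 4 groups of 3 libraries. The groups received the solvent DMSO, eliglustat (ELI, an inhibitor of glucosylceramide synthase), venetoclax (ABT, from ABT-199, an inhibitor of BCL2), or both drugs (Comb), each read at 48 h, with doses not given in the sources used here. All groups are cultures of 1 line, known for a fusion of KMT2A to AFF1 and for an activating FLT3 duplication, so the comparisons describe that line. Nothing in the labels says that replicates came from separate cultures, so every p-value measures only the spread between these libraries.

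KMT2A is a histone methyltransferase that keeps HOX genes active during development. Fusion of its amino-terminal part to a protein of the transcription elongation machinery, such as AFF1, holds part of the HOXA cluster and the cofactor gene MEIS1 in an active state in leukaemia. HOXA9 binds DNA together with the TALE homeodomain proteins MEIS1 and PBX3, and the complex keeps myeloid progenitors dividing in an immature state; MEF2C and MYB are transcription factors of the same immature state.

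Libraries held between 17259898 and 21082302 reads, as recovered from the FPKM steps, and 16361 genes were above 0 in at least 1 library. Of 11 identity markers of the line, 10 passed the filter, SPI1 and CD33 among them, and the monocyte receptor gene CD14 did not. Of 20 markers of other cell types, 7 were at 0 in all libraries, the haemoglobin gene HBB and the collagen gene COL1A2 among them, and 6 passed the filter, KRT8 and PECAM1 among them. The summed level of the 20 was 29.9 to 31.9 FPKM in DMSO, 28.1 to 29.5 in ELI, 26.9 to 29.6 in ABT and 26.8 to 27.2 in Comb; its part in the results was not tested. Replicate 1 of DMSO, ELI and ABT stood apart from its group: the deviations of its genes from the group mean fell with the GC content of the transcript, with Spearman correlations across genes of -0.79, -0.70 and -0.70. Differences between groups also followed GC content, with correlations of -0.48 for ELI against DMSO, 0.66 for ABT against DMSO, -0.38 for Comb against DMSO and -0.54 for Comb against ABT. The correlation was -0.62 for ELI against ABT, -0.06 for Comb against ELI and -0.50 for (Comb minus ABT) minus (ELI minus DMSO). The cause of that trend was not tested, and part of the results are also given with the trend removed. UGCG itself was at 171 ± 40.9 FPKM in DMSO, 288 ± 23.8 in ELI, 127 ± 19.7 with ABT and 252 ± 8.02 in Comb (SD, n = 3); its transcript is not a measure of whether the enzyme was inhibited.

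The promoters of the HOXA members and MEIS1 are shown first, because KMT2A and its fusions hold a CXXC domain that binds unmethylated CG dinucleotides. The windows run from 250 bases before to 50 bases after an annotated transcription start, from RefSeq on GRCh38.p14, and 9 of the 10 members had at least 1. CG dinucleotides are in capitals. HOXA7 is the silent neighbour of the active pair HOXA9 and HOXA10. The 4 windows lie at chr7:27156626-27156925, chr7:27165488-27165787 and chr7:27179812-27180111 on the minus strand, and at chr2:66434875-66435174 on the plus strand.
HOXA7: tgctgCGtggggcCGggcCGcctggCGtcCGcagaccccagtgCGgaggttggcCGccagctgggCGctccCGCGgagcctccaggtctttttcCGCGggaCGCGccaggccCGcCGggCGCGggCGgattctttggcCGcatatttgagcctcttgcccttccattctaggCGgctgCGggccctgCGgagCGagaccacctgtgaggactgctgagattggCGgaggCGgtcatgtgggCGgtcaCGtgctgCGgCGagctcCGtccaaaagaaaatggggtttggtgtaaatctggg
HOXA9: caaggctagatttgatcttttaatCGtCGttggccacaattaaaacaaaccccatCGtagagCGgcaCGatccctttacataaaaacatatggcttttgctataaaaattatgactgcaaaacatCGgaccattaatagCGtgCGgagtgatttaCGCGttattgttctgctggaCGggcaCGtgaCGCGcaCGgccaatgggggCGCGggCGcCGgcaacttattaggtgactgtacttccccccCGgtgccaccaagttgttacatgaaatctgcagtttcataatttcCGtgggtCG
HOXA10: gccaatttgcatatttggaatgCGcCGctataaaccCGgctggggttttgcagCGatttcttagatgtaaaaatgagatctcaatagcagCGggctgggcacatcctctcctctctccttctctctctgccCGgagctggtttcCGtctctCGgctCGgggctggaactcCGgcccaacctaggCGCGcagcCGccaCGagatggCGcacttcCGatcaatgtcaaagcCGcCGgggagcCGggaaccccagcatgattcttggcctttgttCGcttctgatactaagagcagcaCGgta
MEIS1: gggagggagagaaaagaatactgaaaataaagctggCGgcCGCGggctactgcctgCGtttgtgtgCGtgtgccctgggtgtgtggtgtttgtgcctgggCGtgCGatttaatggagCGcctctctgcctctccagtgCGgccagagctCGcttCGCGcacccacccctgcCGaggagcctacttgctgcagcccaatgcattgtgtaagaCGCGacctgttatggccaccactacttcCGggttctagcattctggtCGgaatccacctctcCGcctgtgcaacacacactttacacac

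These windows held 31 CG dinucleotides for HOXA7, 22 for HOXA9, 21 for HOXA10 and 18 for MEIS1. The median over all 35116 windows was 14. Counts in the other windows of expressed members lay on both sides of that of HOXA7, with 43 for PBX3, 35 for MYB, 25 for a second HOXA10 window and 1 to 32 for the 7 windows of MEF2C. The MEIS core motif TGACAG, searched on both strands, was in 15.8% of all windows and in 4 of the 22 member windows, 3 of them of MEF2C and 1 of PBX3. The HOX-PBX composite TGATTTAT was in 0.846% of all windows and the MYB site CAACTG in 11.4%, and neither was in a member window. The composite was searched in this spelling only. The HOXA9 window holds TGATTTAC, which differs from it in the last letter, and that spelling was not searched over all windows. The MEF2 site was searched in a loose form, in which any 4 letters could stand in the middle. This form was in 2.73% of all windows and in 1 member window, that of HOXA6. The middle of that match holds a C, so it does not match a form with only A or T there, which was not searched. No motif lies within another, and a match is a description of letters only.

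HOXA9 and HOXA10 carried nearly all reads of the HOXA members. The cluster lies on chromosome 7, on the minus strand (GRCh38, GENCODE 29; the build used for the counting is not given in the sources used here). HOXA9 (ENSG00000078399, chr7:27162435-27175180) and HOXA10 (ENSG00000253293, chr7:27170591-27180261) gave 98.7 to 99.8% of the reads of the 6 HOXA members in every library. Over the 11 HOXA genes and 12 libraries, HOXA9 held 28.4% of the reads, HOXA10 40.6% and their neighbour HOXA11, which is not a member, 25.3%. The other 4 HOXA members were nearly silent, and of these HOXA3 had 21 reads over the 12 libraries, HOXA6 had 18 and HOXA7 had 13.

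**Figure D1:**
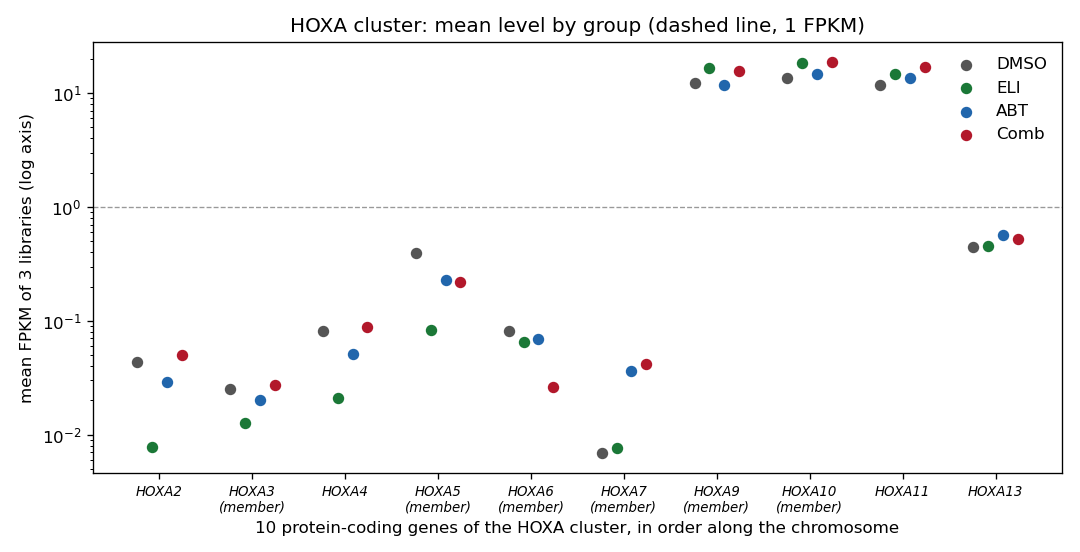
Mean FPKM of the 3 libraries of each group (log axis) for 10 protein-coding HOXA genes in chromosome order; the dashed line is 1 FPKM. HOXA9, HOXA10 and HOXA11 lie between 11.8 and 18.8 FPKM in the group means, and the 4 members HOXA3, HOXA5, HOXA6 and HOXA7 below 1.

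HOXA5, a myeloid HOX gene next to HOXA6, had 91 reads over the 12 libraries, the most of the 4 untested members. It had 10, 18 and 11 reads in the DMSO libraries, 5, 1 and 2 in ELI, 5, 13 and 4 in ABT, and 13, 6 and 3 in Comb. The ELI libraries lay below all DMSO libraries, while the other groups overlapped with DMSO. With no filter on low values, limma gave a difference of -0.36 ± 0.11 (SE) on the log2(FPKM + 1) scale for ELI minus DMSO, with an adjusted p of 0.038; the lowest adjusted p of HOXA3, HOXA6 and HOXA7 over the 6 comparisons between groups was 0.15, for HOXA7 in Comb minus DMSO. HOXA3 spans HOXA5 and HOXA6 by gene bounds, so reads there are uncertain. HOXA9 and HOXA10 share 4590 bases by gene bounds. The read-through gene AC004080.3, which spans parts of both, was listed at 0 in all 12 libraries, and whether counting used strand is not given in the sources used here, so the split of reads between HOXA9, HOXA10 and the antisense HOXA10-AS is uncertain.

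Among the 6 tested members, MYB stood highest and MEIS1 lowest in DMSO, in FPKM, which is per length. MYB was at 67.5 ± 7.30 FPKM, PBX3 at 30.6 ± 2.18, MEF2C at 14.8 ± 4.09, HOXA10 at 13.7 ± 0.944, HOXA9 at 12.2 ± 0.766 and MEIS1 at 4.15 ± 0.458 (SD, n = 3). MEF2C, HOXA10 and HOXA9 did not differ beyond their spread, since their DMSO libraries overlapped. Each of the other neighbours in that order was separated in all 3 libraries.

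With eliglustat alone, HOXA9, HOXA10, MEIS1 and PBX3 were called higher. They rose in ELI against DMSO by 1.17 to 1.61 times in mean FPKM, and 0 of the 6 tested members fell. These are 4 of the 6 tested members, against 16.4% of all tested genes called higher and 36.1% called in either direction (limma on log2(FPKM + 1), Benjamini-Hochberg adjusted p under 0.05 over 9959 genes). The median difference of the 6 was 0.41 log2, and that of all tested genes was 0.01. In 4 of the 6 the ELI libraries lay wholly above the DMSO libraries, as in 18.4% of all tested genes, and in 0 wholly below, as in 22.1%.

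HOXA9, the homeodomain factor at the centre of the program, stood at 12.8, 11.4 and 12.5 FPKM in the DMSO libraries, 17.8, 15.8 and 16.4 in ELI, 12.8, 11.6 and 11.0 with ABT, and 15.4, 15.3 and 16.2 in Comb. Every library that received eliglustat was above every library that did not. The ELI minus DMSO difference was 0.42 ± 0.07 on the log2(FPKM + 1) scale (± SE, as for all differences here), with an adjusted p of 0.0014 by limma.

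HOXA10, its neighbour toward the posterior end of the cluster, stood at 12.6, 14.4 and 14.1 FPKM in the DMSO libraries, 17.8, 19.1 and 18.8 in ELI, 14.6, 15.0 and 14.7 with ABT, and 18.7, 18.3 and 19.3 in Comb. Its eliglustat libraries were again above all others, and its ABT libraries lay just above the DMSO ones. ELI minus DMSO was 0.41 ± 0.06 with an adjusted p of 0.0005 by limma.

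MEIS1 (ENSG00000143995, chr2:66433452-66573869), the TALE cofactor that stabilises HOXA9 on DNA, stood at 4.68, 3.83 and 3.95 FPKM in the DMSO libraries, 7.01, 6.58 and 6.44 in ELI, 4.23, 3.45 and 3.55 with ABT, and 6.69, 6.24 and 6.17 in Comb. The eliglustat libraries did not overlap with the others, and replicate 1 was the highest of its group in all 4 groups. ELI minus DMSO was 0.58 ± 0.08 with an adjusted p of 0.00034 by limma, the largest difference among the 6 tested members in this comparison. The transcript has a GC content of 41.7%, and with the GC and length trend removed the difference was 0.38 ± 0.06 (adjusted p = 0.0002), while that of HOXA10, at 54.2% GC, was 0.51 ± 0.04 and that of HOXA9, at 47.8% GC, was 0.42 ± 0.06.

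PBX3 (ENSG00000167081, chr9:125747345-125967377), the TALE partner that joins HOXA9 and MEIS1, stood at 32.7, 28.4 and 30.8 FPKM in the DMSO libraries, 36.6, 35.3 and 35.8 in ELI, 31.1, 29.9 and 28.5 with ABT, and 32.1, 32.6 and 33.3 in Comb. The ELI libraries were above all others, and the Comb libraries overlapped with DMSO. ELI minus DMSO was 0.23 ± 0.06 with an adjusted p of 0.017 by limma. The call was lost without DMSO replicate 2 (adjusted p = 0.054), ELI replicate 1 (0.063) or ELI replicate 3 (0.051), and when only the 6 libraries compared were fitted (0.099); with the GC and length trend removed the difference was 0.12.

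MEF2C (ENSG00000081189, chr5:88717117-88904257), a MADS-box factor of immature myeloid and lymphoid cells, stood at 19.4, 11.7 and 13.4 FPKM in the DMSO libraries, 20.6, 18.4 and 19.5 in ELI, 13.9, 11.3 and 9.61 with ABT, and 17.8, 17.5 and 17.6 in Comb. Replicate 1 of DMSO lay within the ELI range and far above the other DMSO libraries. ELI minus DMSO was 0.40 ± 0.16 with an adjusted p of 0.064 by limma, so it was not called. Same-numbered libraries of DMSO, ELI and ABT deviated together, though the labels give no pairing. With the replicate block the adjusted p by limma was 0.019 for the same difference. Without DMSO replicate 1 the difference was 0.60 (adjusted p = 0.001), and with the GC and length trend removed it was 0.14 (adjusted p = 0.028); the transcript has the lowest GC content of the 6, 39.0%.

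MYB (ENSG00000118513, chr6:135181315-135219173), a transcription factor of blood progenitors, stood at 75.6, 61.3 and 65.7 FPKM in the DMSO libraries, 78.7, 72.8 and 73.6 in ELI, 74.0, 65.0 and 59.8 with ABT, and 88.4, 89.3 and 88.6 in Comb. The Comb libraries were above all 9 others, and the other groups overlapped. ELI minus DMSO was 0.15 ± 0.09 with an adjusted p of 0.18 by limma, and 0.24 (adjusted p = 0.021) without DMSO replicate 1. It was 0.04 (adjusted p = 0.42) once the GC and length trend was removed.

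**Figure D2:**
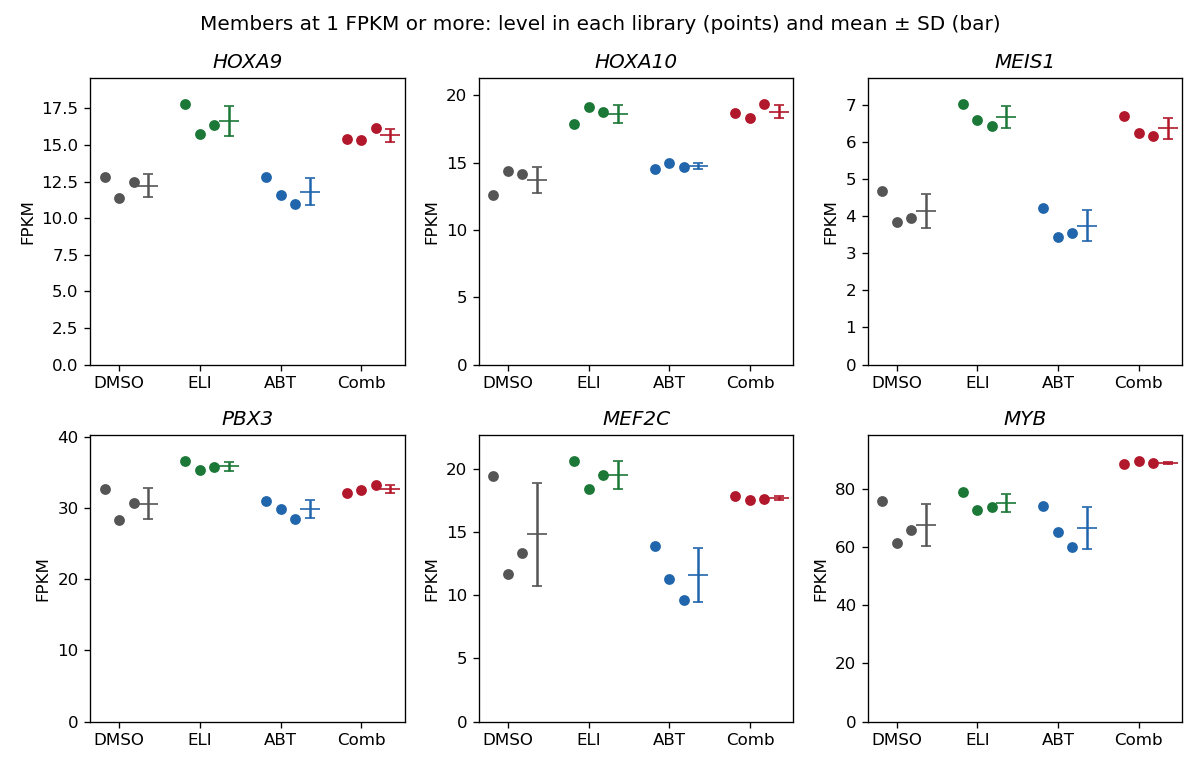
FPKM of the 6 tested members in each of the 12 libraries (points, replicates 1 to 3 from left to right) with the group mean and SD of 3 libraries (bar); axes start at 0. For HOXA9, HOXA10 and MEIS1 the ELI and Comb libraries lie above all DMSO and ABT libraries, and for MYB the Comb libraries, at 88.4 to 89.3 FPKM, lie above the rest.

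With venetoclax alone, no member passed the threshold. In ABT minus DMSO 0 of the 6 tested members were called by limma, and 0 had an unadjusted p under 0.05 or were called with voom on the recovered reads. Of all tested genes 0.151% were called, which are 15 genes, all lower, while 2011 had an unadjusted p under 0.05. The ABT libraries lay wholly above the DMSO libraries in 1 of 6 members, HOXA10, and in 7.73% of all tested genes, and wholly below in 0 and in 5.8%. Differences ran from -0.31 ± 0.16 for MEF2C (adjusted p = 0.27 by limma) to 0.10 ± 0.06 for HOXA10 (adjusted p = 0.32). The intervals at 95% were -0.21 to 0.11 for HOXA9 and -0.30 to 0.06 for MEIS1, so changes within them in either direction were not detectable here. With the replicate block and only these 6 libraries, the MEF2C difference had an adjusted p of 0.022, where 2028 genes were called; with the GC and length trend removed it was -0.04 (adjusted p = 0.63).

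With both drugs, HOXA9, HOXA10, MEIS1 and MYB were higher than in DMSO, and PBX3 was not called. They are 4 of 6 tested members, against 25.7% of all tested genes called higher and 51.5% in either direction; this comparison uses the same DMSO libraries as ELI minus DMSO. HOXA9 was higher by 0.33 ± 0.07 (adjusted p = 0.003 by limma), HOXA10 by 0.43 ± 0.06 (0.00017), MEIS1 by 0.52 ± 0.08 (0.00032) and MYB by 0.40 ± 0.09 (0.003), on the log2(FPKM + 1) scale. The Comb libraries lay wholly above the DMSO libraries for these 4, as for 27.3% of all tested genes, and wholly below for 0 (28.4%). PBX3 differed by 0.09 ± 0.06 (adjusted p = 0.23) and MEF2C by 0.27 ± 0.16 (adjusted p = 0.17). MEF2C was called without DMSO replicate 1 (0.47, adjusted p = 0.0033). With the GC and length trend removed MEIS1 was at 0.32, MYB at 0.30 and MEF2C at -0.01.

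Against venetoclax alone, the libraries with both drugs were higher in 5 of the 6 tested members, where 35.4% of all tested genes were called higher and 67.2% in either direction. All 6 members had Comb libraries wholly above the ABT libraries, as did 39.7% of all tested genes, while 0 members and 36.8% had them wholly below. MEIS1 rose by 0.64 ± 0.08 (adjusted p = 5.3e-05 by limma), MEF2C by 0.58 ± 0.16 (0.0065), MYB by 0.42 ± 0.09 (0.0014), HOXA9 by 0.38 ± 0.07 (0.00087) and HOXA10 by 0.33 ± 0.06 (0.00081). PBX3 differed by 0.13 ± 0.06 with an adjusted p of 0.092. The MEF2C call was lost on removal of the GC and length trend (0.03 ± 0.05, adjusted p = 0.55), and under it MEIS1 was at 0.24 ± 0.06 (adjusted p = 0.0031), MYB at 0.22 ± 0.04 (0.00049) and HOXA10 at 0.52 ± 0.04 (9e-08).

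Eliglustat set against venetoclax gave 5 of 6 tested members higher in ELI, where 33.2% of all tested genes were, 29.8% were lower and 63% moved in either direction. In 5 of 6 the ELI libraries lay wholly above the ABT libraries (36.5% of all tested genes), and in 0 wholly below (34.7%). This comparison shares its ELI libraries with ELI minus DMSO and its ABT libraries with Comb minus ABT. MEF2C was higher by 0.71 ± 0.16, MEIS1 by 0.70 ± 0.08, HOXA9 by 0.46 ± 0.07, HOXA10 by 0.31 ± 0.06 and PBX3 by 0.26 ± 0.06. MYB differed by 0.18 ± 0.09 with an adjusted p of 0.091 by limma, and of 0.034 with the replicate block. With the GC and length trend removed, PBX3 was at 0.06 (adjusted p = 0.24), MEF2C at 0.18, MEIS1 at 0.31, HOXA9 at 0.45, HOXA10 at 0.47 and MYB at -0.04.

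Between the 2 groups that received eliglustat, 0 of 6 tested members were called by limma in Comb minus ELI, and 0 with voom on the recovered reads, where 9.55% of all tested genes were, 3.03% higher and 6.52% lower; 1 member, MYB, had an unadjusted p under 0.05. HOXA9, HOXA10 and MEIS1 differed by -0.08, 0.02 and -0.06, with intervals of -0.24 to 0.08, -0.12 to 0.15 and -0.24 to 0.12. The Comb libraries lay wholly above the ELI libraries for MYB (19.7% of all tested genes) and wholly below for PBX3 and MEF2C (20.6%). MYB differed by 0.24 ± 0.09 with an adjusted p of 0.12 by limma. It was called when only the 6 libraries compared were fitted (0.0043), with the replicate block (0.039), without DMSO replicate 1 (0.037) and once the trend with GC and length was removed (0.26, adjusted p = 0.00065). PBX3 differed by -0.13 ± 0.06 (adjusted p = 0.26) and MEF2C by -0.13 ± 0.16 (0.71). With the trend removed MEF2C was called lower (-0.15, adjusted p = 0.041), and with the replicate block as well so was PBX3 (-0.11, 0.044). The replicate block takes Comb as paired by number, which its libraries did not show.

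The difference of differences, (Comb minus ABT) minus (ELI minus DMSO), compares eliglustat on top of venetoclax with eliglustat alone. It was called by limma for 0 of 6 tested members, and for 0 with voom, where 5.34% of all tested genes were called, 1.68% higher and 3.67% lower; 0 members had an unadjusted p under 0.05. MYB came nearest, at 0.27 ± 0.12 with an unadjusted p of 0.054 and an adjusted p of 0.24. HOXA9 was at -0.03 ± 0.11, HOXA10 at -0.09 ± 0.09, MEIS1 at 0.06 ± 0.12, PBX3 at -0.10 ± 0.09 and MEF2C at 0.18 ± 0.22. With the 4 libraries numbered 1 left out, MYB was called (0.30, adjusted p = 0.033). PBX3 was called once the GC and length trend was removed (-0.18, 0.048), and with the replicate block as well PBX3 (0.033) and MYB (0.18, 0.039). The block takes Comb as paired by number here too.

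**Figure D3:**
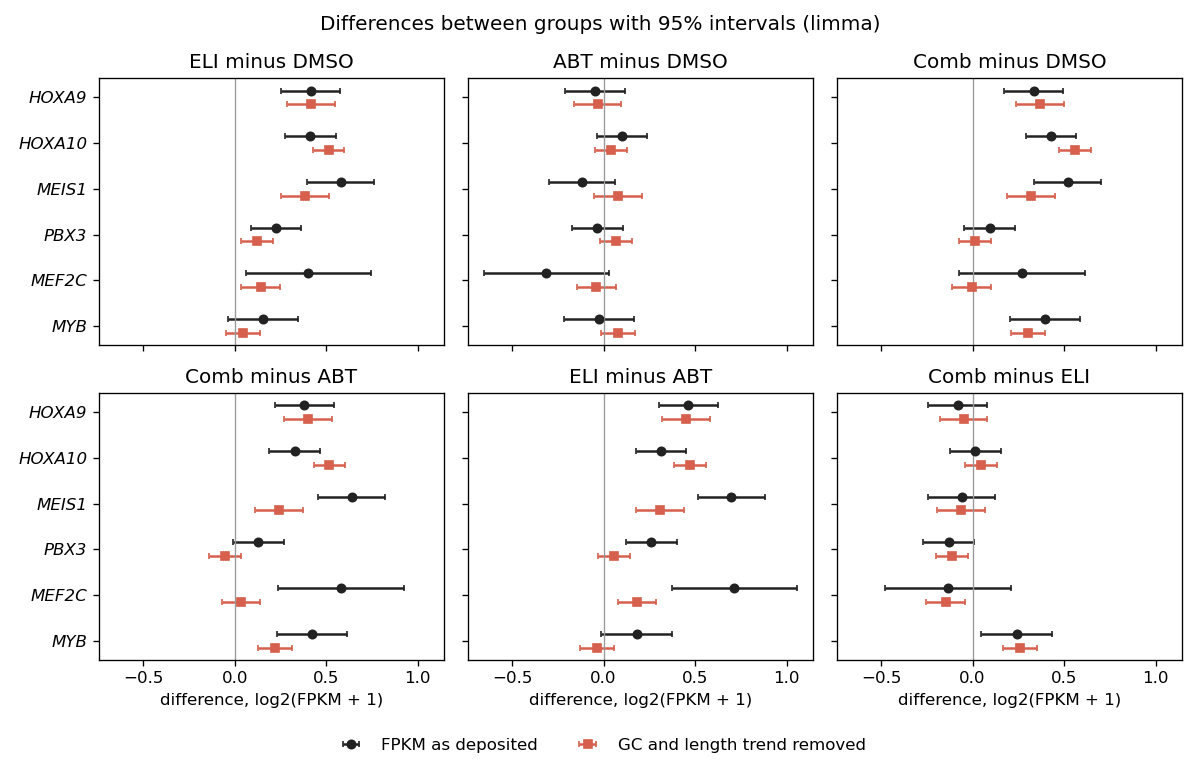
Differences between groups on the log2(FPKM + 1) scale for the 6 tested members, with 95% intervals from limma, from the deposited FPKM (circles) and with the GC and length trend removed (squares). HOXA9, HOXA10 and MEIS1 stay above 0 in all 4 comparisons of a group with eliglustat against one without, and MEF2C moves from 0.58 to 0.03 in Comb minus ABT.

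Of the neighbours of HOXA9 and HOXA10, HOXA11 rose with eliglustat and SKAP2 was not called in ELI minus DMSO. HOXA11, the next gene toward the posterior end, stood at 11.8 ± 1.54 FPKM in DMSO, 14.7 ± 1.42 in ELI, 13.6 ± 0.804 with ABT and 16.9 ± 0.622 in Comb (SD, n = 3). It rose by 0.30 ± 0.09 in ELI minus DMSO (adjusted p = 0.031 by limma) and by 0.49 ± 0.09 in Comb minus DMSO (0.0013). The first of these calls was lost without DMSO replicate 1 (0.054), ELI replicate 2 (0.11) or ELI replicate 3 (0.068), and with the GC and length trend removed the difference was 0.41. SKAP2, a gene next to the cluster, differed by 0.07 in ELI minus DMSO (adjusted p = 0.56). It rose by 0.32 in Comb minus ABT (0.0071), where removal of the GC and length trend turned the direction (-0.17, adjusted p = 0.046).

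Of the 28 HOXB, HOXC and HOXD genes, 2 passed the filter. HOXB4, a gene of haematopoietic stem cells, fell from 10.8 ± 1.21 FPKM in DMSO to 8.10 ± 0.790 in ELI and 8.18 ± 0.629 in Comb, by 0.37 ± 0.09 log2 in ELI minus DMSO (adjusted p = 0.01 by limma) and by 0.35 ± 0.09 in Comb minus DMSO (0.0083). Of the other TALE homeodomain genes 6 of 9 were tested, and TGIF1 and PKNOX1 rose in ELI minus DMSO and in Comb minus DMSO. TGIF1, a transcriptional repressor, went from 4.68 ± 0.210 FPKM in DMSO to 7.50 ± 0.143 in ELI and 8.40 ± 0.0957 in Comb, by 0.58 ± 0.06 and 0.73 ± 0.06 log2. PKNOX1, a MEIS-like partner of PBX proteins, rose by 0.31 ± 0.06 and 0.29 ± 0.06. MEIS2, PBX2, PBX4 and TGIF2 did not pass in either; in Comb minus ABT PBX2 (-0.35) and TGIF2 (-0.31) fell and PBX4 (0.26) rose. With the GC and length trend removed MEIS2 was at -0.30 in ELI minus DMSO (adjusted p = 0.0018) and TGIF1 at 0.39.

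Other genes known as direct targets of KMT2A fusions mostly rose. Of the 22 tested of 30 listed, 13 rose and 2 fell in ELI minus DMSO, 17 rose and 2 fell in Comb minus DMSO, and 18 rose and 2 fell in Comb minus ABT. The medians were 0.36, 0.34 and 0.57 log2, against 0.01, 0.02 and 0.02 over all tested genes, of which 16.4%, 25.7% and 35.4% rose. In ABT minus DMSO 0 of the 22 were called, with a median of -0.20. The list was chosen with results of these libraries known and is not independent evidence of direction. With the GC and length trend removed the 3 counts were 14 and 2, 16 and 3, and 17 and 4. Without the 4 libraries numbered 1 they were 19 and 2, 17 and 2, and 18 and 2.

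CDKN1B, the cell cycle inhibitor p27, stood at 10.6, 9.21 and 9.36 FPKM in the DMSO libraries, 20.1, 19.2 and 18.8 in ELI, 10.3, 8.96 and 8.04 with ABT, and 21.2, 20.8 and 20.4 in Comb. The libraries with eliglustat lay above all those without it, and the difference was 0.93 ± 0.08 log2 in ELI minus DMSO (adjusted p = 1e-05 by limma) and 1.12 ± 0.08 in Comb minus ABT. GNAQ, a G protein subunit, rose by 1.18 ± 0.21 and 1.92 ± 0.21 in these comparisons, and by 0.92 and 1.39 with the GC and length trend removed. The growth regulator MYC rose by 0.50 ± 0.09 in ELI minus DMSO and 0.75 ± 0.09 in Comb minus DMSO, CDKN2C, the inhibitor p18, by 0.38 ± 0.07 and 0.36 ± 0.07, and the RNA-binding protein gene IGF2BP2 by 0.35 ± 0.08 and 0.53 ± 0.08. IKZF1, the lymphoid factor Ikaros, was 1 of the 2 that fell, by 0.20 ± 0.06 and 0.38 ± 0.06, and RUNX2 was the other.

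Genes known as targets of HOXA9 and MEIS1 rose in part. Of 19 tested of 26 listed, 8 rose and 3 fell in ELI minus DMSO, 9 rose and 5 fell in Comb minus DMSO, and 9 rose and 4 fell in Comb minus ABT, with medians of 0.19, 0.11 and 0.09 log2. Of all tested genes 16.4%, 25.7% and 35.4% rose and 19.8%, 25.8% and 31.7% fell. FLT3, CDK6, BCL2 and LMO2 stand in this list and in the one before. PIM1, a survival kinase, stood at 32.8, 42.6 and 42.9 FPKM in the DMSO libraries and 113, 125 and 119 in ELI, with means of 40.4 ± 1.21 in ABT and 99.3 ± 1.04 in Comb (SD, n = 3), a rise of 1.58 ± 0.09 log2 in ELI minus DMSO (adjusted p = 3.7e-07 by limma). CSF2RB, the shared receptor chain for GM-CSF and interleukin-3, rose by 0.66 ± 0.06 and 0.80 ± 0.06 in ELI and Comb minus DMSO, and the ETS factor gene ETV6 by 0.44 ± 0.06 and 0.55 ± 0.06. SOX4, a progenitor factor, fell by 0.43 ± 0.06 and 0.26 ± 0.06, and SYK, a kinase below immune receptors, by 0.36 ± 0.08 and 0.36 ± 0.08.

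The genes of the fusion's own machinery were called in both directions. KMT2A was at 7.66 ± 0.665 FPKM in DMSO, 7.82 ± 0.145 in ELI, 7.05 ± 0.697 with ABT and 6.56 ± 0.219 in Comb, with no call against DMSO; reads of the fusion transcript and of the intact KMT2A and AFF1 cannot be told apart here. AFF1 fell by 0.27 ± 0.08 in Comb minus DMSO (adjusted p = 0.019 by limma) and was at -0.01 in ELI minus DMSO. Of 23 tested cofactors and elongation genes, 2 rose and 3 fell in ELI minus DMSO, 6 rose and 8 fell in Comb minus DMSO, and 7 rose and 7 fell in Comb minus ABT, where 16.4% and 19.8%, 25.7% and 25.8%, and 35.4% and 31.7% of all tested genes did. In Comb minus ABT 8 rose and 12 fell once the GC and length trend was removed. In ELI minus DMSO 8 rose and 6 fell when the 4 libraries numbered 1 were left out. CDK9, the kinase that releases paused polymerase, fell by 0.47 ± 0.11 and 0.58 ± 0.11 against DMSO in ELI and Comb, while MLLT10, a DOT1L partner, rose by 0.38 ± 0.12 and 0.46 ± 0.12. DOT1L, the H3K79 methyltransferase, fell by 0.36 ± 0.08 in Comb minus DMSO, and AFF4, a scaffold of the elongation complex, rose by 0.50 ± 0.13 there (0.28 with the GC and length trend removed). Of 13 tested KMT2 core subunits, 2 rose and 3 fell in ELI minus DMSO, 1 and 6 in Comb minus DMSO, and 2 and 6 in Comb minus ABT; the counts were 2 and 5, 2 and 7, and 2 and 8 once the GC and length trend was removed. HCFC1 (-0.47 ± 0.09), ASH2L (-0.21 ± 0.05) and WDR5 (-0.27 ± 0.09) were the 3 that fell in ELI minus DMSO. KMT2C (0.30 ± 0.10) and KDM6A (0.23 ± 0.08) were the 2 that rose.

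Polycomb products oppose KMT2A at HOX loci, and a list of their subunits also held genes that act against Polycomb marks or modify its complexes (KDM6B, BAP1, ASXL1 and ASXL2). Of 29 tested, 3 rose and 7 fell in ELI minus DMSO, 4 rose and 12 fell in Comb minus DMSO, and 8 rose and 13 fell in Comb minus ABT; of all tested genes 16.4%, 25.7% and 35.4% rose and 19.8%, 25.8% and 31.7% fell. The H3K27 demethylase gene KDM6B was 1 of the 3 that rose in ELI minus DMSO (0.50 ± 0.09, adjusted p = 0.0014 by limma), and ASXL1 and BAP1 were among the 7 that fell. PHF19, a PRC2 accessory subunit, went from 12.6 ± 1.33 FPKM in DMSO to 7.81 ± 0.568 in ELI and 4.89 ± 0.337 in Comb, and CBX2, a PRC1 subunit, from 8.89 ± 1.09 to 5.95 ± 0.378 and 3.89 ± 0.224. EZH2, the H3K27 methyltransferase, differed by 0.00 ± 0.07 in ELI minus DMSO and fell by 0.76 ± 0.07 in Comb minus DMSO. CBX6 rose by 0.62 ± 0.08 and 0.71 ± 0.08. In ELI minus DMSO 4 rose and 12 fell with the GC and length trend removed, and 8 rose and 10 fell without the 4 libraries numbered 1.

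Relatives of MEF2C and MYB did not show a shared rise. Of 11 tested MEF2 family genes and class IIa regulators, 0 were called in ELI minus DMSO, 2 fell in Comb minus DMSO (HDAC7 by 0.32 ± 0.09 and SIK2 by 0.20 ± 0.06) and 5 fell in Comb minus ABT. In ELI minus DMSO 0 were called without the 4 libraries numbered 1, while 1 rose and 2 fell with the GC and length trend removed; without those libraries 6 fell in Comb minus DMSO. Of 8 tested relatives and coactivators of MYB, 1 rose and 1 fell in ELI minus DMSO, and 1 rose and 4 fell in Comb minus DMSO. In Comb minus ABT CEBPB rose, and MYBL2 and MYBL1 fell. Over all tested genes 16.4% rose and 19.8% fell in ELI minus DMSO, where the MYB list was near those shares. The shares were 25.7% and 25.8% in Comb minus DMSO, and 35.4% and 31.7% in Comb minus ABT. MYBL2, the MYB relative of dividing cells, stood at 159, 212 and 199.7 FPKM in the DMSO libraries, 85.2, 99.5 and 91.4 in ELI, 186, 205 and 218 with ABT, and 39.9, 42.1 and 40.1 in Comb. Each eliglustat library was below all libraries without it, and Comb was below ELI. The fall was 1.03 ± 0.10 log2 in ELI minus DMSO and 2.19 ± 0.10 in Comb minus DMSO (adjusted p = 2.2e-05 and 1.3e-08 by limma). CEBPB, a factor of macrophage maturation, rose by 0.79 ± 0.11 and 1.16 ± 0.11.

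Genes of the myelomonocytic lineage, listed for maturation but including progenitor and granule genes such as MS4A3 and MPO, were divided. Of 20 tested of 29 listed, 4 rose and 9 fell in ELI minus DMSO, 5 rose and 8 fell in Comb minus DMSO, and 5 rose and 8 fell in Comb minus ABT. Over all tested genes the shares were 16.4% and 19.8%, 25.7% and 25.8%, and 35.4% and 31.7%. The share of the list that rose was near the first value of each pair in ELI and Comb minus DMSO. The share that fell was above the second value in each comparison, most in ELI minus DMSO (9 of 20 against 19.8%). With the GC and length trend removed the splits were 9 and 9, 7 and 8, and 9 and 6. S100A9, a calcium-binding protein of mature myeloid cells, stood at 127 ± 5.49 FPKM in DMSO, 32.6 ± 4.18 in ELI, 98.6 ± 9.36 with ABT and 14.9 ± 2.02 in Comb, and its partner S100A8 fell by 2.27 ± 0.13 log2 in ELI minus DMSO and fell by 3.12 ± 0.13 in Comb minus DMSO. LYZ, lysozyme, went from 111 ± 7.85 FPKM in DMSO to 56.4 ± 2.39 in ELI and 90.4 ± 3.32 in Comb. The 4 that rose in ELI minus DMSO were CEBPB (0.79 ± 0.11), FCGR1A (0.47 ± 0.07), CD86 (0.33 ± 0.12) and ITGAX (0.25 ± 0.07). CD86 also rose in Comb minus ABT, by 0.83 ± 0.12. In bulk RNA such as this, fewer cells of a type and less RNA per cell cannot be told apart.

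**Figure D4:**
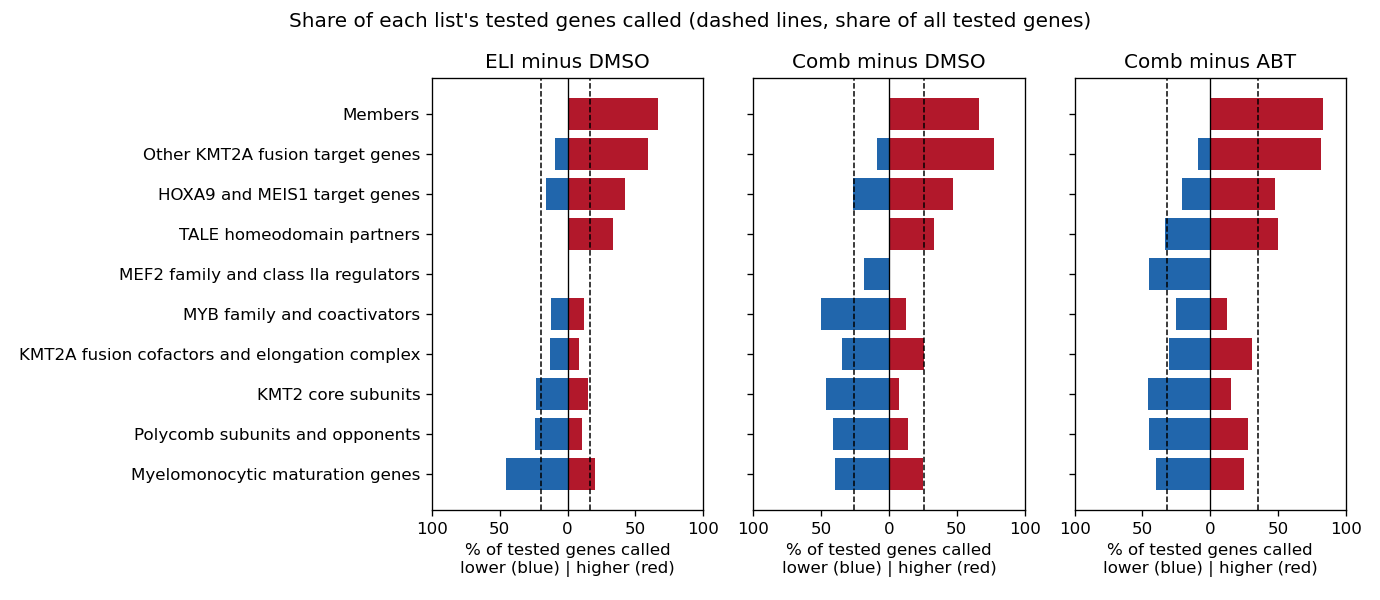
Share of the tested genes of each list that limma called higher (red, to the right) or lower (blue, to the left) in 3 comparisons, with the share of all 9959 tested genes as dashed lines. Members and other KMT2A fusion targets reach far past the dashed line on the higher side. The lists of Polycomb and KMT2 core genes reach past the lower line in the comparisons with Comb. In ELI minus DMSO they lie near it, and the maturation list reaches furthest to the lower side.

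The tested members followed one another to different degrees across the 12 libraries, which belong to 4 treatment groups and share the GC trend, so that the values here are descriptions. HOXA9 followed MEIS1 closely (Pearson r = 0.97, n = 12 libraries) and HOXA10 less so (r = 0.83), and the loosest pair was HOXA10 with MEF2C (r = 0.55). Outside the members, the 3 tested genes most like the mean of HOXA9 and HOXA10 were the endoplasmic reticulum chaperone gene HSPA5 (r = 0.990, 89.7 FPKM in DMSO, 133 in ELI, 89.5 with ABT and 135 in Comb), the growth factor gene VEGFA (r = 0.987) and the chemokine gene CCL2 (r = 0.987). Nearest to MEIS1 were OGA, INHBA and HIVEP1 (r = 0.990, 0.990 and 0.989), and nearest to PBX3 were RANBP9, KPNA1 and MCMBP (r = 0.980, 0.970 and 0.969). MEF2C was nearest to LIMS1, RAP2C and XRN2 (r = 0.993, 0.992 and 0.992), and MYB to COG5, ZNF330 and CTR9 (r = 0.976, 0.976 and 0.973).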

How the data were processed

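The authors deposited 1 table of FPKM values (fragments scaled to gene length and library size) for 12 libraries; per the file headers its columns name libraries and its first column Ensembl genes. Aligner, counter, annotation, build and strand setting: not given in the sources used here. Symbols were found for 20011 of 20036 genes. The FPKM steps gave whole reads for all 16361 genes above 0 (100.0%, within a relative 1e-05, or 0.001 on a second pass; 92 genes were raised by a shared factor), which give the depths. Differences were fitted with limma 3.58.1 in R 4.3.3 on log2(FPKM + 1) for 9959 genes with at least 1 FPKM in at least 3 libraries, with 4 group means, trended and robust variances, and Benjamini-Hochberg adjustment over all tested genes at 0.05. Differences on this scale understate the change of low genes. The fit was run on simulated counts with the same dispersion for every gene and no GC, length or replicate effect. How it handles those features of these libraries was therefore not tested. A GC and length trend was removed from each library by loess (span 0.5, degree 1; GC was known for 99.8% of tested genes), which also removes any change that follows GC. Same-numbered libraries of DMSO, ELI and ABT deviated together (correlations of 0.24 to 0.88), while pairs with Comb ran from -0.40 to 0.16. The labels give no pairing, differently numbered libraries were not compared, and the correlations were not separated from the GC trend. The replicate block was fitted by number over every group, so for Comb it assumes a pairing that the correlations do not show. The members and gene lists were chosen with earlier results of these data known. All members were named; from each list, up to 4 called genes with the smallest adjusted p in each of ELI minus DMSO, Comb minus DMSO and Comb minus ABT; all tested genes of the HOXA cluster and TALE lists, apart from genes that are not reported here; and the 3 genes most like each pattern. RUNX2, KMT2A, AFF1, KDM6B, ASXL1, ASXL2, BAP1, FCGR1A and the genes shared between lists were named after their values were seen.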

Additional observations from a re-analysis of the deposited data

Results flagged for a closer look

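Among the 6 tested members 0 differed in response to eliglustat with and without venetoclax, by limma's test of (Comb minus ABT) minus (ELI minus DMSO). Of the other named genes 8 did, each by the test of that difference itself, and of all tested genes 5.34% were called. Those genes were named partly for a small adjusted p in ELI minus DMSO or Comb minus ABT. Since the difference is made of these comparisons, the number of such genes is not independent evidence. MYBL2 gave -1.25 ± 0.14 log2 (adjusted p = 0.0003 by limma), as it fell by 2.29 on top of venetoclax and by 1.03 alone. The Polycomb genes PHF19, CBX2 and EZH2 also had negative values, at -0.63 ± 0.12 (0.011), -0.62 ± 0.12 (0.011) and -0.62 ± 0.10 (0.0038). S100A9 gave -0.72 ± 0.16 (0.02). Positive values were found for LYZ at 0.78 ± 0.10 (0.00079), MS4A3, a gene of granulocyte and monocyte progenitors, at 0.74 ± 0.17 (0.027) and the aminopeptidase gene ANPEP at 0.39 ± 0.10 (0.043). LYZ and MS4A3 fell by 0.97 and 1.26 in ELI minus DMSO and by 0.19 and 0.52 in Comb minus ABT, and ANPEP rose by 0.33 and 0.72. Over all tested genes the difference of differences followed GC content (Spearman correlation -0.50), and the values of these 8 genes are given without removal of that trend.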

How the results depend on the processing

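HOXA9, HOXA10 and MEIS1 kept their calls in ELI minus DMSO, Comb minus DMSO, Comb minus ABT and ELI minus ABT under all 23 alternatives, which were another pseudocount (0.1 or 0.5), no filter, median-of-ratios scaling, voom on recovered reads, the replicate block, removal of the GC and length trend, both together, only the libraries compared, each library left out, the 4 libraries numbered 1 left out, and the block with only the libraries compared, which was chosen after seeing the data. MYB kept its calls in Comb minus DMSO and Comb minus ABT. For single members, 880 values kept direction and side of the threshold, 34 passed it newly, 8 lost it and 32 turned direction, none of the last being called. The cause was not tested.

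With the replicate block, fitted by number over every group, Comb included, ABT minus DMSO gave 142 genes in place of 15. The difference of differences gave 983 in place of 532, and Comb minus ELI gave 1 member. Block results that involve Comb assume a pairing by number that its libraries did not show. With only the libraries compared, the block gave 2028 genes and 1 member in ABT minus DMSO, and 1607 genes and 1 member in Comb minus ELI. With the GC and length trend removed as well, the block over all libraries gave 1209, 2874 (3 members) and 2172 genes (2 members) in ABT minus DMSO, Comb minus ELI and the difference of differences, and without the block the trend removal gave 633, 2450 (2 members) and 1693 (1 member). It turned MEIS1, MYB and PBX3 in ABT minus DMSO to 0.077, 0.081 and 0.067, MEF2C in Comb minus DMSO to -0.0056, PBX3 in Comb minus ABT to -0.055, MYB in ELI minus ABT to -0.037, and the difference of differences of HOXA10, MEF2C and MEIS1 to 0.0042, -0.11 and -0.14, the same with the block.

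With only the libraries compared, ELI minus DMSO gave 1994 genes in place of 3600, ABT minus DMSO 0, and Comb minus ELI 2252 in place of 951 with 1 member. Without the 4 libraries numbered 1 the counts were 5581, 147 and 1546 (1 member), and 1801 (1 member) for the difference of differences; HOXA10 in Comb minus ELI turned to -0.0089 and the HOXA9 difference of differences to 0.043. Median-of-ratios scaling gave 8 genes in ABT minus DMSO, and turned MYB and PBX3 there to 0.022 and 0.013. Leaving out 1 library gave 2291 to 5871 genes and 3 to 6 members in ELI minus DMSO, 3 to 931 genes in ABT minus DMSO, 4086 to 6589 genes and 4 to 5 members in Comb minus DMSO, 5795 to 7282 genes and 5 to 6 members in Comb minus ABT, 588 to 1529 genes and 0 to 1 members in Comb minus ELI, 4772 to 6916 genes and 5 to 6 members in ELI minus ABT, and 322 to 1123 genes in the difference of differences. Directions that turned under it, all of uncalled differences, ranged from -0.11 to 0.057 for MYB and -0.086 to 0.013 for PBX3 in ABT minus DMSO, from -0.012 to 0.036 for HOXA10 in Comb minus ELI, and from -0.079 to 0.022 for HOXA9, -0.021 to 0.33 for MEF2C and -0.013 to 0.13 for MEIS1 in the difference of differences. Depth limits HOXA3, HOXA6 and HOXA7, with 13 to 21 reads over 12 libraries, so that changes in them were not detectable.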
